A study of Mus musculus with 8 samples.

Results

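The 9 genes described here encode the receptors of prolactin and growth hormone (Prlr and Ghr), the transcription factors those receptors activate (Stat5a and Stat5b), a pair of feedback inhibitors of the same receptors (Cish and Socs2), the tryptophan hydroxylases (Tph1 and Tph2) and a potassium channel subunit that responds to lactogens in islets (Lrrc55). They were chosen by name, with the means of the 4 groups of this study in view. All 9 were found among the 16333 genes of the deposited tables, whose lowest mean was 23.2 normalized counts. Because the group means were in view, the differences between genotypes are given below as a description, and nothing is supported with them.

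The libraries were made from RNA of pancreatic islets, the endocrine cell clusters that hold the insulin-producing beta cells. The mice were of the strain given as Agouti/C57BL6. In the knockout mice (KO), tamoxifen had deleted NFATc2, a calcium-regulated transcription factor, in insulin-expressing cells of the adult animal; the wild-type mice were also given tamoxifen, with no deletion. The growth protocol also names C57BL/6 mice as a source of islets, and neither the ages nor the promoter that drives the recombinase are stated. As background, some recombinase lines driven by an insulin promoter carry a human growth hormone minigene, and that hormone can act on the mouse prolactin receptor. Whether the line used here carries it, and whether the wild-type mice carried the same transgene, is not stated, so the deletion and the transgene cannot be told apart in any KO over Mut value below. Islets of 2 KO and 2 wild-type mice spent a night in 5.5 mM glucose and were then divided between 2 h without treatment and 2 h with a mixture of IL1β (5 ng/mL), IFNγ (50 ng/mL) and TNFα (10 ng/mL) at a glucose of 11 mM. The glucose of the untreated islets during those 2 h is not stated, and effects of the cytokines and of glucose cannot be told apart. The tables use the names KO and Mut. As Mut appears in no label, it was taken for wild type, the genotype that remained, and the name is kept here.

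The 4 groups held 2 libraries each, and the group means of the tables gave back whole reads per library for 16303 genes (99.8%), with 14507947 to 26772565 reads per library. Every group held 1 female and 1 male library. The labels do not give sex; it was read from 4 Y-linked genes, with 0 to 37 reads in the female and 7516 to 12355 in the male libraries, and from Xist. Values are given below as female before male, in normalized counts, which are reads divided by the size factor of a library. Nfatc2, the deleted gene, held 1167 and 842 normalized counts in untreated KO and 1557 and 1270 in untreated Mut libraries, and 987 and 899 against 1646 and 1144 with cytokines. A count over the whole gene in islets of mixed cell types is a limited check of the deletion. Each p-value below refers to these few mice alone, and those of limma also draw on a spread shared across genes. In whole islets fewer cells of a type and less RNA per cell cannot be told apart.

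Prolactin and growth hormone bind receptors of the cytokine receptor family, which activate the kinase JAK2 and, through it, STAT5. STAT5 enters the nucleus and induces, among other genes, Cish and Socs2, whose products dampen the signal at the receptor. In pregnancy, lactogens act on the beta cells through the prolactin receptor, and Tph1, the rate-limiting enzyme of serotonin synthesis outside the brain, is among the genes most strongly induced in mouse islets. Tph2 catalyses the same step in serotonergic neurons. LRRC55 is an auxiliary subunit of the large-conductance calcium-activated potassium channel (BK channel).

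The start regions of 4 of these genes are shown. Cish and Prlr were taken because, among the 8 genes with a window, only theirs held the pattern marked. Socs2 had no window and was not searched. Tph1 and Lrrc55, whose windows did not hold the pattern, were taken because their transcripts ranged most between libraries, as described below. The sequences are from RefSeq on GRCm38.p6, each a stretch of 150 bases in the direction of transcription, and capitals mark the letters TTCNNNGAA, the pattern that STAT5 is known to bind, which is its own reverse complement. The stretch for Cish is chr9:107296529-107296678 (plus strand), whose last 20 bases begin at the RefSeq start. For 1 of 3 starts of Prlr it is chr15:10223756-10223905 (plus strand). The stretches of Cish and Prlr lie inside the GENCODE bounds given below, so their other bases may be transcribed too. For 1 of 2 starts of Tph1 the stretch is chr7:46672538-46672687 (minus strand). For Lrrc55 it is chr2:85198751-85198900 (minus strand), and the RefSeq start of Lrrc55 lies outside its GENCODE bounds.
Cish: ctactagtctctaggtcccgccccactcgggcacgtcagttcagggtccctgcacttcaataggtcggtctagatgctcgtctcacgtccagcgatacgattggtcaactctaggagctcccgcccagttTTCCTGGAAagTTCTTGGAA
Prlr: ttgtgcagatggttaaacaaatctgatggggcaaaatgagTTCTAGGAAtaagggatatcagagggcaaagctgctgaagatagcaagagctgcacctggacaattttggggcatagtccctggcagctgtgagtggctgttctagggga
Tph1: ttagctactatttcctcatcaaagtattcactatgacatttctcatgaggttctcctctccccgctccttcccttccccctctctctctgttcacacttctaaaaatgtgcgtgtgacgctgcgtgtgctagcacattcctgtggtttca
Lrrc55: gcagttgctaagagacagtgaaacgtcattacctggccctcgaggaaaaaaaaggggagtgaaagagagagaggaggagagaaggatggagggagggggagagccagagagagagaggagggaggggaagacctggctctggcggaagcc

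Socs2 had no window in the RefSeq table. For the other 8 of the 9 genes it held 14 windows of 300 bases (250 before and 50 after a start). TTCNNNGAA occurred in 2 of these windows. The Cish window held it in 2 places, TTCCTGGAA and TTCTTGGAA, and the Prlr window shown held TTCTAGGAA. Of 32851 windows of the same length over all genes, 8.3% held the pattern at least once and 0.457% at least 2 times. The letters GGAAAA, the core that NFAT factors are known to bind, occurred on either strand in 4 of the 14 windows, against 23.4% of all windows. In Cish the GGAAAA match, on the opposite strand, overlapped the first TTCNNNGAA match. A match is a description of the letters and not evidence of binding.

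Prlr, the prolactin receptor (chromosome 15, 10177238 to 10349180, plus strand, GRCm38), had the highest level of the 9 genes per kilobase of exon. Over the 8 libraries it averaged 2611 normalized counts per kilobase (range 1656 to 3237), followed by Tph1 at 1383 (221 to 2903), Cish at 734 (354 to 1194), Ghr at 614 (524 to 724) and Lrrc55 at 392 (151 to 612). Below these came Stat5b at 331 normalized counts per kilobase (303 to 354), Socs2 at 322 (192 to 445), Tph2 at 109 (60 to 152) and Stat5a at 57.4 (48.2 to 69.1). All neighbours in this order had overlapping ranges except Socs2 and Tph2. Tph1 had the widest range, 13.1-fold between its lowest and highest library on the scale of log2(normalized count + 1). Lrrc55 ranged 4.04-fold, Cish 3.37-fold, Tph2 2.53-fold, Socs2 2.32-fold and Prlr 1.96-fold on that scale, against 1.43-fold for Stat5a, 1.38-fold for Ghr and 1.17-fold for Stat5b.

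**Figure D1:**
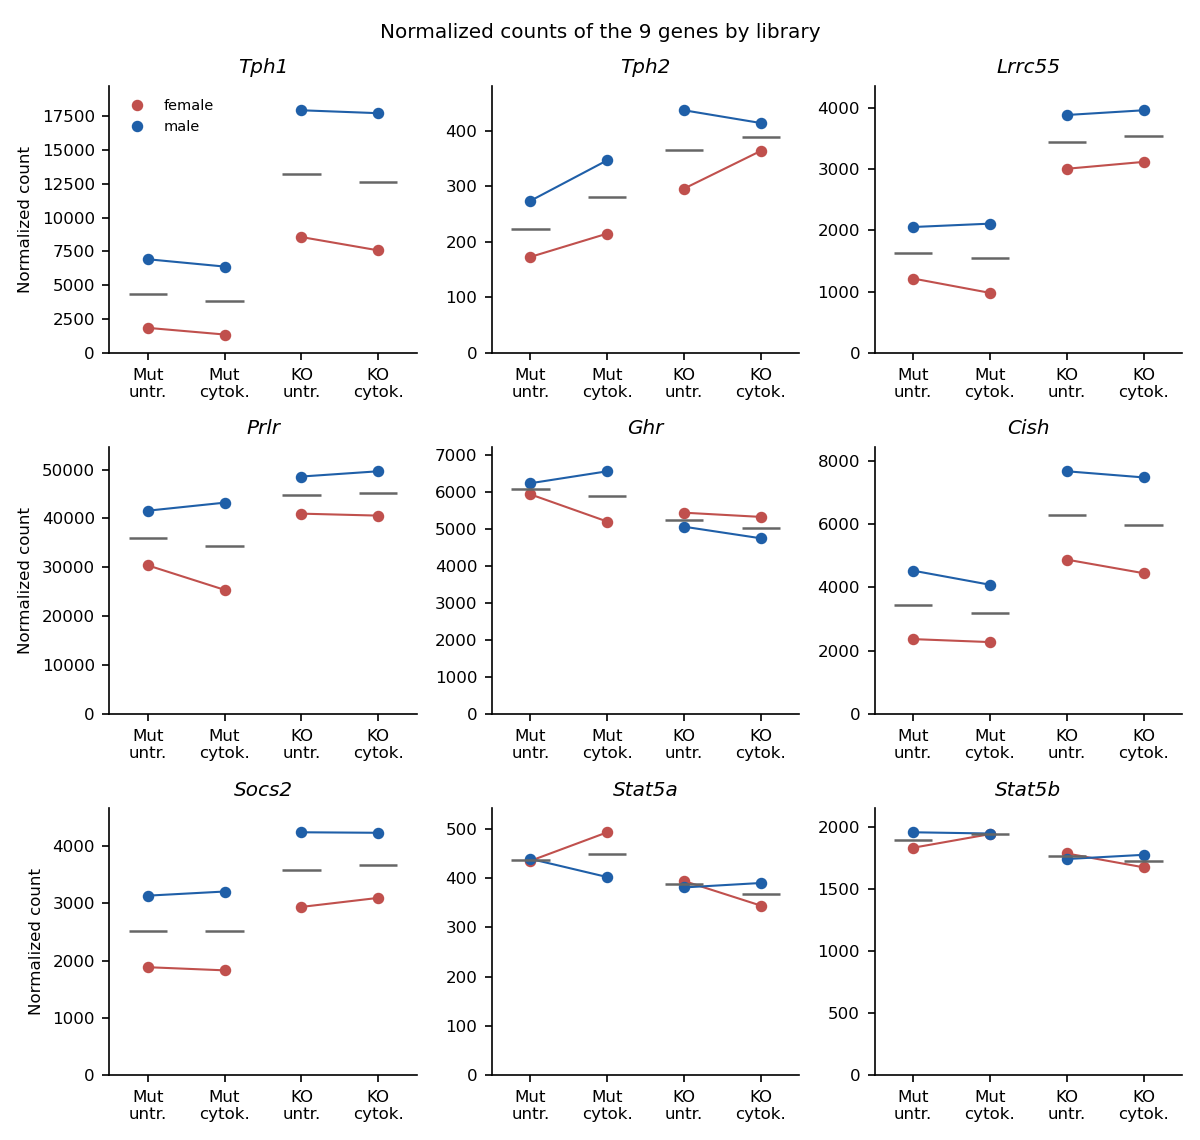
Normalized counts of the 9 genes in each of the 8 libraries, with linear axes that start at 0; points are libraries coloured by sex, lines join the untreated and cytokine libraries of a mouse, and grey bars are group means (n = 2). Tph1, Tph2, Lrrc55 and Cish have both KO libraries above both Mut libraries in each treatment, and the male point lies above the female point in every pair for these 4 genes, Prlr and Socs2.

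Among the receptors, Prlr held 40984 and 48578 normalized counts in untreated KO and 30408 and 41588 in untreated Mut libraries. With cytokines its counts were 40583 and 49652 in KO, against 25395 and 43231 in Mut. The Mut male lay above the KO female in both treatments, so the genotypes overlapped. Ghr, the growth hormone receptor (chromosome 15, 3317760 to 3583492, minus strand), held 5439 and 5060 normalized counts in untreated KO and 5934 and 6235 in untreated Mut libraries. With cytokines its counts were 5325 and 4747 in KO, against 5199 and 6558 in Mut. Both KO libraries lay below both Mut libraries of Ghr untreated, and the genotypes overlapped with cytokines. An exon of Prlr overlaps the gene Gm21973 on the same strand, so some reads of Prlr may not have been counted for it.

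Stat5b (chromosome 11, 100780731 to 100850724, minus strand) was the flattest of the 9 genes, with 1789 and 1744 normalized counts in untreated KO and 1835 and 1960 in untreated Mut libraries. With cytokines it held 1677 and 1778 in KO and 1945 and 1950 in Mut libraries. Its KO libraries lay below its Mut libraries in both treatments, and its highest library was 1.17-fold above its lowest. Stat5a (chromosome 11, 100859351 to 100885169, plus strand), its neighbour and close relative, held 394 and 381 normalized counts in untreated KO, 435 and 439 in untreated Mut, 344 and 390 in treated KO and 493 and 402 in treated Mut libraries. Here too both KO libraries lay below both Mut libraries in each treatment. An exon of Stat5a overlaps Stat3 on the opposite strand, and the strandedness of the libraries is not stated.

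The feedback inhibitors were higher in KO libraries of the same sex. Cish (chromosome 9, 107296026 to 107302784, plus strand) held 4877 and 7667 normalized counts in untreated KO and 2366 and 4528 in untreated Mut libraries, or 6272 ± 1973 against 3447 ± 1529 (SD, n = 2). With cytokines it held 4448 and 7473 in KO and 2272 and 4083 in Mut libraries. Both KO libraries lay above both Mut libraries in each treatment, although the KO female exceeded the Mut male by little. Socs2 (chromosome 10, 95385362 to 95417180, minus strand) held 2939 and 4244 normalized counts in untreated KO and 1885 and 3136 in untreated Mut libraries, and 3097 and 4235 against 1830 and 3208 with cytokines. The Mut male lay above the KO female for Socs2, so its groups overlapped. Exons of Cish overlap Gm17040 and Gm17041 on the opposite strand.

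Tph1 (chromosome 7, 46644641 to 46672537, minus strand) differed most between libraries. It held 8558 and 17914 normalized counts in untreated KO and 1856 and 6920 in untreated Mut libraries, or 13236 ± 6616 against 4388 ± 3581 (SD, n = 2). With cytokines it held 7575 and 17699 in KO and 1365 and 6380 in Mut libraries, or 12637 ± 7159 against 3873 ± 3546. The lowest KO library lay above the highest Mut library in each treatment, and within each group the male held the higher count. Tph2 (chromosome 10, 115078641 to 115185022, minus strand) was far less abundant, with 296 and 437 normalized counts in untreated KO and 173 and 274 in untreated Mut libraries. With cytokines Tph2 held 364 and 414 in KO and 215 and 347 in Mut libraries, again without overlap between genotypes.

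Lrrc55 (chromosome 2, 85162334 to 85197197, minus strand) held 3005 and 3882 normalized counts in untreated KO and 1215 and 2055 in untreated Mut libraries, or 3444 ± 620 against 1635 ± 594 (SD, n = 2). With cytokines it held 3117 and 3959 in KO and 981 and 2110 in Mut libraries. Its groups did not overlap in either treatment. Tph1, Tph2, Lrrc55 and Cish shared the order KO male, KO female, Mut male and Mut female in both treatments. Exons of Lrrc55 overlap Gm13713 and Gm13716 on the opposite strand.

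By the study's title, the genotypes were compared to find genes that NFATc2 regulates in islets. Both KO libraries lay above both Mut libraries for 4 of the 9 genes in each treatment, where 18.6% of all genes did so untreated and 14.7% with cytokines. Both lay below for 3 of 9 untreated (Ghr, Stat5a and Stat5b) and 2 of 9 with cytokines (Stat5a and Stat5b), against 18.3% and 14.2% of all genes. Since group means chose the genes, nothing is read from these counts.

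In the authors' deposited tables Tph1 was 3.02-fold higher in KO islets untreated (log2 1.59, SE 1.04) and 3.26-fold higher with cytokines (log2 1.71, SE 1.04). The authors' deposited log2 values, untreated before cytokines, were 1.07 (SE 0.34) and 1.19 (SE 0.34) for Lrrc55, 0.86 (SE 0.55) and 0.91 (SE 0.55) for Cish, 0.71 (SE 0.34) and 0.47 (SE 0.33) for Tph2, and 0.52 (SE 0.32) and 0.54 (SE 0.32) for Socs2. For the remaining genes the authors' deposited log2 values were 0.31 (SE 0.25) and 0.39 (SE 0.25) for Prlr, -0.21 (SE 0.15) and -0.22 (SE 0.15) for Ghr, -0.17 (SE 0.19) and -0.28 (SE 0.19) for Stat5a, and -0.10 (SE 0.11) and -0.17 (SE 0.11) for Stat5b. At an FDR below 0.05 the authors' deposited tables called 0 of the 9 genes untreated and 1 with cytokines, Lrrc55 at an FDR of 0.04999. The same rule called 0.41% and 0.998% of all genes, and 2 and 1 of the 9 had an unadjusted p below 0.05, as did 4.89% and 5.88% of all genes; nothing is read from these counts. Untreated, Lrrc55 had an FDR of 0.1912 in the authors' deposited table, and was not called.

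The standard errors of that fit span both sexes, and within a sex the difference between genotypes could be read from 1 mouse of each. Tph1 was 4.61-fold higher in the KO than in the Mut female and 2.59-fold higher in the KO than in the Mut male without treatment, and 5.55-fold and 2.77-fold higher with cytokines. For Lrrc55 these ratios were 2.47 and 1.89 untreated and 3.18 and 1.88 with cytokines. For Cish they were 2.06 and 1.69 untreated and 1.96 and 1.83 with cytokines. The ratios of Tph1, Lrrc55, Cish, Socs2, Prlr and Tph2 were above 1 in both sexes and both treatments. The treatments share the same mice, and the share of all genes with such ratios is not given, so nothing is read from this. When limma was fitted to the recovered reads with a term for sex, 5 of the 9 genes (Tph1, Tph2, Lrrc55, Cish and Socs2) were called higher in untreated KO islets, against 4.74% of all genes called in either direction and 3.34% called higher. With cytokines 4 were called, the same genes without Tph2, against 6.32% in either direction and 4.26% higher. This fit with cytokines took each gene's spread from the trend over all genes, so its calls hold no spread of the gene itself. Over the means of the 4 mice, both treatments averaged, the same 5 genes as untreated were called, against 7.58% in either direction and 5.27% higher. Whether the genotype difference of a gene differed between the sexes was not tested, because 1 mouse stood for each sex and genotype.

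**Figure D2:**
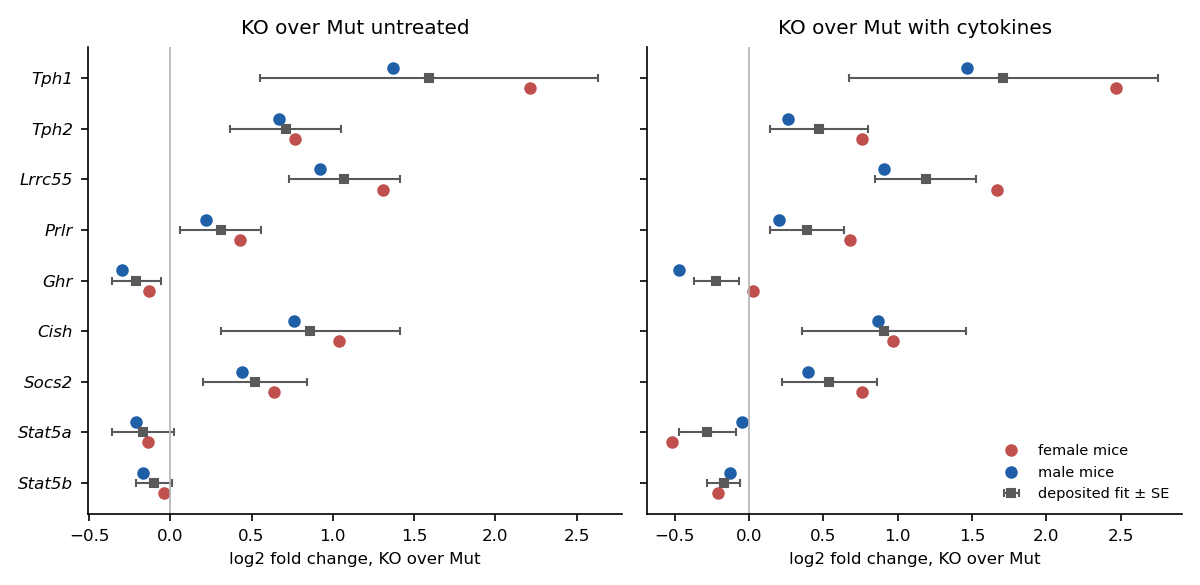
Log2 fold change of KO over Mut for the 9 genes, untreated on the left and with cytokines on the right; squares with bars are the authors' deposited values ± SE, circles are ratios of normalized counts within female and within male mice (1 mouse of each genotype). Tph1 has the largest values, with 2.21 in females and 1.37 in males untreated, and its deposited SE of 1.04 is the widest.

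The 5 genes called between genotypes over the mouse means, and Prlr, which was not called there, differed between the male and the female mice. The choice of genes did not use this comparison, since each group mean holds 1 library of each sex. The comparison was added after the data were seen and uses the same 4 mice. Over the means of the 4 mice (2 per sex, with genotype as a term), limma called 6 of the 9 genes, all higher in males. Of all genes it called 9.08% in either direction and 2.92% higher in males. Over the 8 libraries the other 5 genes followed Tph1 (r of 0.92 to 0.99), so the 6 calls are not separate results. Tph1 was 3.03-fold higher in males (log2 1.60, SE 0.15, limma adjusted p = 1.68e-07), and higher in the male in all 4 pairs of libraries. Cish was 1.73-fold higher (log2 0.79, SE 0.11, limma adjusted p = 4.01e-05), Socs2 1.55-fold (log2 0.63, SE 0.11, limma adjusted p = 0.000632) and Lrrc55 1.56-fold (log2 0.64, SE 0.12, limma adjusted p = 0.00152). Tph2 was 1.43-fold higher (log2 0.52, SE 0.14, limma adjusted p = 0.0193) and Prlr 1.35-fold (log2 0.44, SE 0.13, limma adjusted p = 0.0345). These 5 genes were also higher in the male in all 4 pairs. The pairs come from 2 male and 2 female mice, each counted in both treatments, so they are not 4 separate comparisons.

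Ghr, Stat5a and Stat5b stood at log2 0.03 (SE 0.11), -0.04 (SE 0.13) and 0.03 (SE 0.11) for male over female, and none passed the threshold. The male over female ratio of Tph1 was 2.09 in untreated KO and 3.73 in untreated Mut islets, and 2.34 and 4.67 with cytokines. Lrrc55 likewise had ratios of 1.29 in KO and 1.69 in Mut untreated, and 1.27 and 2.15 with cytokines, while for Cish they were 1.57 and 1.91, and 1.68 and 1.80. Each of these ratios compares 1 male with 1 female mouse. The fit left 1 residual degree of freedom per gene and rests on a spread shared across genes, which weighed as 19.8 degrees of freedom. Its SE and p-values therefore hold little of the gap between the KO and Mut ratios of Tph1 and Lrrc55. Sex and whatever else the 2 mice of a sex share cannot be told apart.

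**Figure D3:**
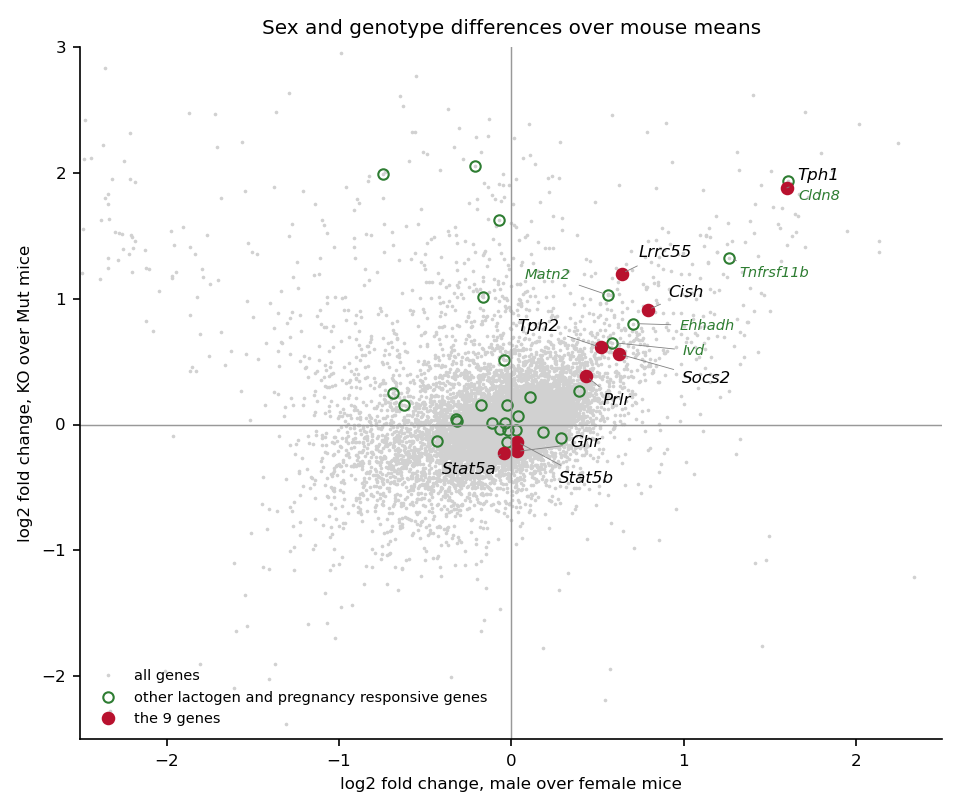
Log2 fold change of male over female mice (horizontal) and of KO over Mut mice (vertical) from limma over the means of 4 mice; grey points are all genes within the axis limits, open circles the other lactogen and pregnancy responsive genes and filled circles the 9 genes. Tph1, at 1.60 and 1.88, lies beside Cldn8, while Ghr, Stat5a and Stat5b lie near 0 on the horizontal axis.

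Markers of other cells moved with both factors. Of 11 beta-cell markers 8 had recovered reads, and their sum was 78552 to 93591 normalized counts over all libraries. The group means of all 11, Ins1 and Ins2 included, summed to 1837089 to 2074800, so most beta-cell marker counts lie outside that sum. In either genotype comparison 0 of 11 were called. Between sexes, the sum of 10 acinar markers (of 11) was 29211 to 120604 in female and 7092 to 32902 in male libraries, that of 6 alpha-cell markers (of 7) was 22796 to 24352 and 11149 to 15534, and that of 6 duct markers (of 6) was 14288 to 16893 and 22248 to 25837. The group means of all 7 alpha-cell markers summed to 209443 to 239674, so most alpha-cell marker counts lie outside the sums by sex. The sum of 6 markers of delta, PP and epsilon cells (of 6) was 60715 to 77594 in female and 44639 to 59967 in male libraries. Between genotypes, 8 endothelial markers (of 8) summed to 4750 to 6072 in KO and 7547 to 9825 in Mut libraries, 7 macrophage markers (of 8) to 2614 to 3279 and 1748 to 2294, 4 lymphocyte markers (of 8) to 341 to 1305 and 156 to 210, and 8 stromal markers (of 8) to 4615 to 13199 and 1551 to 10080. The 10 acinar markers summed to 70670 and 32902 in untreated KO and 62844 and 9818 in untreated Mut libraries, and to 120604 and 23181 against 29211 and 7092 with cytokines, so that KO lay above Mut within each sex. Their KO over Mut fold change was positive for 8 of 10 untreated (median log2 0.39) and 10 of 10 with cytokines (median 2.02), with 0 called. By the authors' deposited FDR, 5 of 8 endothelial markers were lower and 4 of 4 measured lymphocyte markers higher in KO islets with cytokines, and 1 lymphocyte marker was at 0 in a library of untreated Mut islets. The part of these markers in the differences of the 9 genes was not tested. Mast cells, which also use Tph1, were represented by 2 of 9 markers, whose sum was 422 to 518 in KO and 420 to 667 in Mut libraries. Kit, the stem cell factor receptor, averaged 429 and 441 normalized counts in KO and 418 and 540 in Mut groups, untreated before cytokines. Hdc, the histamine-forming enzyme, averaged 38 and 29 in KO and 19 and 27 in Mut groups.

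None of the 9 genes passed the threshold for a response to 2 h of cytokines in 11 mM glucose. The authors' deposited tables (DESeq2) called 0 of the 9 in KO islets, against 0.0429% of all genes, and 0 in Mut islets, against 0.0122%; 0 of the 9 had an unadjusted p below 0.05 in either, beside 1.02% and 0.918% of all genes. With the mouse as a block, limma also called 0 and 0, against 0.123% and 0.153% of all genes, and the smallest adjusted p-values were 0.728 and 0.234. Unadjusted, 0 and 2 of the 9 had a p below 0.05, beside 8.38% and 12.1% of all genes, so these 2, Tph1 and Tph2 in Mut islets, are no result about the 9 genes. Tph1 stood at log2 -0.28 (SE 0.08) and its counts were 0.736 and 0.922 of the untreated level in the Mut female and male, against 0.885 and 0.988 in the KO female and male. Tph2 stood at log2 0.32 (SE 0.11) in Mut islets, with ratios of 1.24 and 1.27, against 1.23 and 0.948 in KO islets.

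Cish, the direct STAT5 target, was lower with cytokines in all 4 mice, as was Tph1, and was not called. Its ratios were 0.912 and 0.975 in the KO female and male and 0.96 and 0.902 in the Mut female and male. With the mouse as a block, the log2 response of Cish was -0.09 (SE 0.05) in KO islets, against -0.11 (SE 0.05) in Mut islets. Socs2 stood at 0.03 (SE 0.05) and -0.01 (SE 0.05), and Lrrc55 at 0.04 (SE 0.08) and -0.14 (SE 0.08) in the same fit. In the Mut female Lrrc55 and Prlr were at 0.807 and 0.835 of the untreated level, whereas in the Mut male they were at 1.03 and 1.04. Prlr, Ghr, Stat5a and Stat5b had fitted log2 responses between -0.10 and 0.04, with SE of 0.06 to 0.11. The difference of the response between genotypes was not past the threshold for any of the 9 genes. From the deposited fits 0 of 9 and 0% of all genes were called, with 36 genes and 0 of the 9 at an unadjusted p below 0.05; limma with the mouse as a block also called 0, with 667 genes and 0 of the 9 below 0.05 unadjusted. In limma this difference, KO minus Mut, was 0.18 (SE 0.11) for Tph1 and 0.18 (SE 0.11) for Lrrc55.

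**Figure D4:**
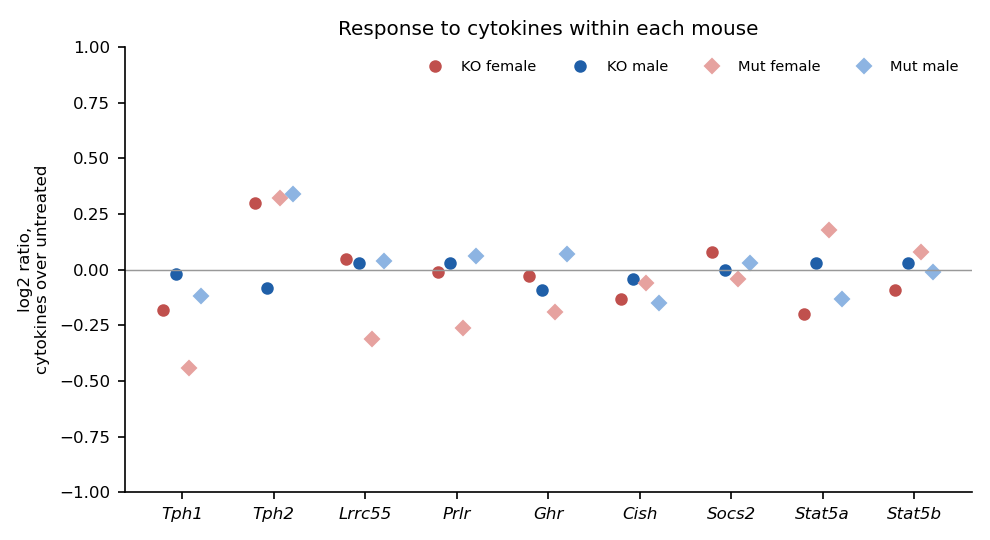
Log2 ratio of normalized counts, cytokines over untreated, within each of the 4 mice for the 9 genes; circles are KO and diamonds Mut mice. The values lie between -0.44 (Tph1, Mut female) and 0.34 (Tph2, Mut male).

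Of 28 other genes of the pathway from the lactogen receptors to STAT5 26 were measured, and the authors' deposited tables called 0 of them in each of the 4 comparisons, with genotype medians of -0.01 untreated and 0.00 with cytokines beside 0.00 over all genes. Limma with the sex block called 1, Shc1, an adaptor of receptor tyrosine kinases, lower in untreated KO islets. Of all genes it called 4.74% in either direction untreated. Shc1 held 4602 and 3950 normalized counts in untreated KO and 5823 and 5279 in untreated Mut libraries, and stood at log2 -0.38 (SE 0.18) in the authors' deposited table. Siah2, a ubiquitin ligase, stood at -0.34 (SE 0.17) untreated in the authors' deposited table and was not called. In the male over female comparison limma called 0 of the 26 higher and 1, Socs3, lower. Of all genes it called 2.92% higher and 9.08% in either direction.

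Among 28 other islet genes known to respond to lactogens or pregnancy, all measured, 20 had a positive KO over Mut fold change in each treatment, with medians of 0.22 and 0.14 beside 0.00 over all genes. The authors' deposited tables called 1 higher untreated, Igf1, an insulin-like growth factor (log2 2.73, SE 0.61, FDR 0.003807), and 1 with cytokines, Pbk, a mitotic kinase (log2 1.76, SE 0.45, FDR 0.01414). Pbk held 71.2 and 69.5 normalized counts in untreated KO and 23.9 and 20.6 in untreated Mut libraries. Of all genes the authors' deposited FDR called 0.355% higher untreated and 0.814% with cytokines. Limma with the sex block called 10 of the list higher untreated and 9 with cytokines, beside 3.34% and 4.26% of all genes. The list was chosen with earlier results of these data known, so nothing is read from these counts. The 9 list genes called with cytokines, where the spread came from the trend alone, were also called untreated: Birc5, Cldn8, Ehhadh, Hnf4a, Igf1, Ivd, Matn2, Pbk and Tnfrsf11b.

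Of those 9, 5 were also called higher in male mice, and they were singled out after their values were seen. They were Cldn8, a tight junction protein (log2 1.67, SE 1.02 for KO over Mut untreated), Tnfrsf11b, the decoy receptor osteoprotegerin (1.09, SE 0.84), Matn2, a matrix protein (0.95, SE 0.31), Ehhadh, a peroxisomal enzyme (0.81, SE 0.35), and Ivd, an enzyme of leucine breakdown (0.58, SE 0.30), all in the authors' deposited table. Cldn8 held 4252 and 9030 normalized counts in untreated KO and 901 and 3275 in untreated Mut libraries, the same order of mice as Tph1. Over the list, 6 genes were called higher in males, these 5 and Igfals, and 4 lower, among them Igf1, Pim2 and Osmr. Of all genes 2.92% were called higher in males and 9.08% in either direction. Birc5, which encodes survivin, Pbk and Hnf4a were called between genotypes and not between sexes; the difference of these calls was not tested.

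**Figure D5:**
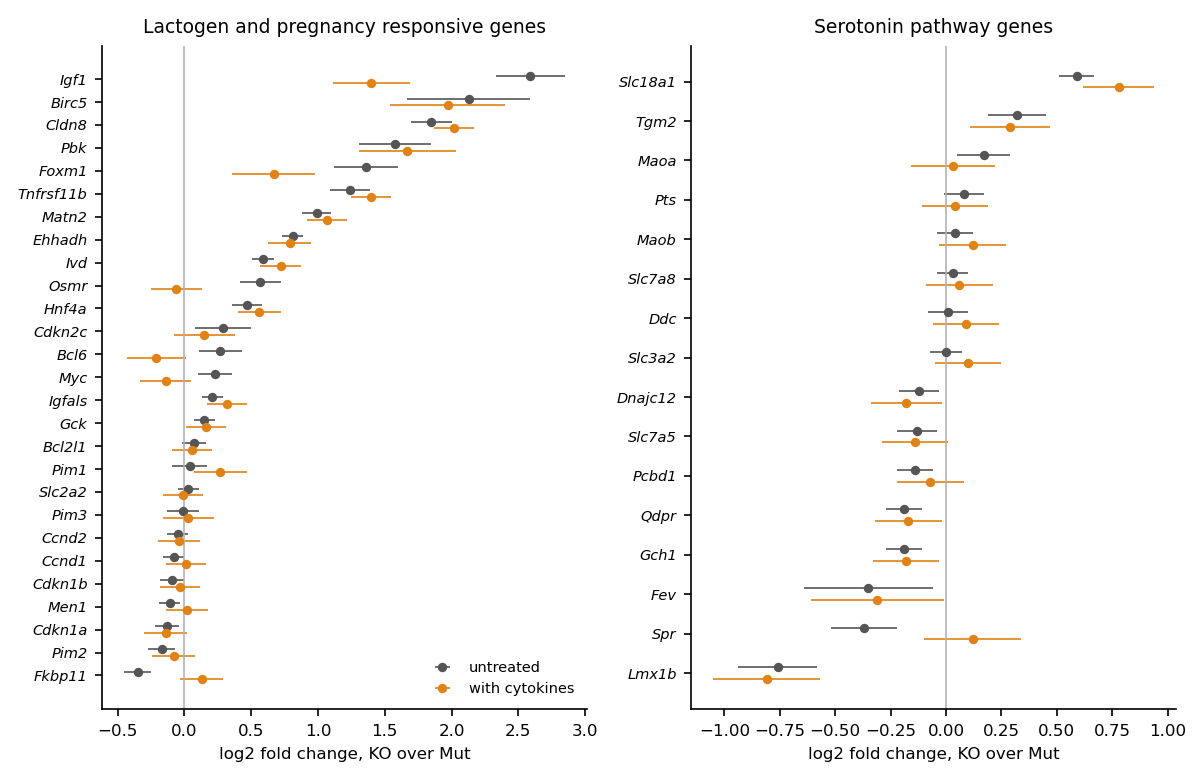
Log2 fold change of KO over Mut ± SE from limma with the sex block, untreated (grey) and with cytokines (orange), for 27 of the 28 other lactogen and pregnancy responsive genes and 16 other serotonin pathway genes. The highest values on the left belong to Igf1, Birc5, Cldn8 and Pbk. On the right Slc18a1 stands above 0 and Lmx1b below 0 in both treatments. The SE with cytokines come from the trend over all genes alone.

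Beside Tph1 and Tph2, 16 of 35 other genes of serotonin synthesis, transport, breakdown and reception were measured, and the authors' deposited tables called 0 of them in each of the 4 comparisons. Ddc, the decarboxylase that completes serotonin synthesis, held 8190 and 7365 normalized counts in untreated KO and 7398 and 8002 in untreated Mut libraries, with overlapping groups. Slc18a1, a vesicular monoamine transporter, held 1027 and 1656 in untreated KO and 691 and 1091 in untreated Mut libraries, and stood at log2 0.59 (SE 0.36) untreated and 0.78 (SE 0.36) with cytokines in the authors' deposited tables. Limma with the sex block called Slc18a1 higher and Lmx1b, a transcription factor of serotonergic neurons, lower in KO islets in both treatments. In either direction it called 4.74% of all genes untreated and 6.32% with cytokines, the latter with the spread from the trend alone. In male mice limma called Slc18a1 higher, and Lmx1b and Fev, also a factor of serotonergic neurons, lower. Of all genes 9.08% were called between the sexes in either direction. Slc3a2 and Tgm2, a subunit of an amino acid transporter and a transglutaminase, had cytokine responses of 0.22 (SE 0.10) and 0.63 (SE 0.34) in KO islets in the authors' deposited table, neither called.

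Of 7 other subunits related to LRRC55 in BK channels, 3 were measured. Kcnma1, the pore subunit, held 5068 and 4946 normalized counts in untreated KO and 5757 and 5080 in untreated Mut libraries, and was not called in any comparison. Kcnmb2 stood at log2 0.39 (SE 0.19) untreated and 0.31 (SE 0.19) with cytokines for KO over Mut in the authors' deposited tables. Kcnmb1 stood at -0.51 (SE 0.58) and -0.36 (SE 0.57) there, and neither gene was called. Limma with the sex block called Kcnmb2 higher untreated, as it did 3.34% of all genes.

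The patterns of 14220 genes with a mean of at least 50 normalized counts were ranked by their distance from Tph1 over the 8 libraries, as the Euclidean distance of mean-centred log2(normalized count + 1). The nearest were Lactbl1 (0.33), Gm37583 (0.36), Cldn8 (0.39), Gm16308 (0.39) and Sftpd, a surfactant protein (0.47). Among the 5 nearest to Lrrc55 were Matn2 (0.28), Srbd1 (0.35), Lonrf3 (0.42) and Gpr135, an orphan receptor (0.48). The 5 genes nearest Tph1 had mean log2 differences of 1.56 to 2.02 for KO over Mut and 1.51 to 1.78 for male over female, and the 4 named for Lrrc55 0.98 to 1.13 and 0.56 to 0.78. Likeness over 8 libraries of 4 mice was the criterion of the ranking, so these differences are a description.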

How the data were processed

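The deposit holds 4 tables of comparisons made by the authors; the tools listed in the submitters' processing notes are HISAT2, HTSeq and DESeq2, with the build GRCm38 and no versions. The signal columns the authors deposited are group means of counts scaled by each library's size factor. The deposited log2 fold change and score (a Wald statistic) gave the standard error as the first over the second. The deposited p-value is two-sided normal, and the deposited FDR is its Benjamini-Hochberg adjustment over all genes of a table. Genes were called at an FDR below 0.05. No library columns exist in the tables, and 0 columns stayed unmapped. Library sex and pairing are therefore readings from the data.

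Whole reads were recovered from the group means, each the sum of 2 whole numbers times fixed steps, a procedure tested on simulated data. For 214 genes the mean over all libraries was also needed, and 30 genes, among them Ins1 and Ins2, were not settled. Limma 3.58.1 in R 4.3.3 was run on log2 CPM (TMM factors, prior count 2, trend). Blocks were the mouse for cytokine responses and sex, within each treatment, for genotype; libraries of a mouse deviated together from their group means (correlation 0.663 in KO and 0.728 in Mut). With cytokines that genotype fit took each gene's spread from the trend alone, so its p-values are not printed. Positions and exon lengths are from GENCODE M21.

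The 9 genes, 4 gene lists and 10 marker lists were chosen with earlier results of these data known. From each list the text names the genes the authors called, otherwise the 3 with the smallest deposited p, and the 5 genes nearest Tph1 and Lrrc55; other names, including all called only by limma, Ddc, Kit and Hdc, were chosen after their values were seen. A few genes that this rule or a list takes are not reported here.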

Additional observations from a re-analysis of the deposited data

How the results depend on the processing

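The count of the 9 genes called between genotypes depended on the fit. Of the limma alternatives given for it, only the fit with the replicate block held a term for sex. Those with the authors' size factors, a prior count of 0.5 or 1 mouse left out had no block. The blocked fit was not rerun with these settings, so their effect on its calls was not tested. Untreated, the authors' deposited FDR called 0, and limma with the replicate block (sex) called 5; at an FDR below 0.10 or 0.01, over genes with a mean of at least 50, and in limma with no replicate block, with the authors' size factors, with a prior count of 0.5 or without any 1 mouse it was 0. With cytokines the deposited count of 1 (Lrrc55) stayed 1 at an FDR below 0.10. It was 0 at an FDR below 0.01, 0 over genes with a mean of at least 50, 0 in limma with no replicate block, 0 with the authors' size factors, 0 with a prior count of 0.5, 0 to 0 without any 1 mouse, and 4 with the replicate block. For the interaction and for the response to cytokines in either genotype the count of 0 stayed 0 under every alternative run, the replicate block included. Without the Mut male the KO over Mut log2 difference of Tph1 went to 2.74 untreated and 3.07 with cytokines, and over all mice left out in turn it ranged from 0.84 to 2.74 and from 0.87 to 3.07. These ranges were 0.73 to 1.49 and 0.75 to 1.83 for Lrrc55, 0.43 to 1.37 and 0.51 to 1.33 for Cish, 0.39 to 1.05 and 0.18 to 0.84 for Tph2, 0.17 to 0.91 and 0.19 to 0.97 for Socs2, and 0.10 to 0.55 and 0.07 to 0.81 for Prlr. Each such fit leaves 1 mouse in an arm, assumed to vary like the other groups, so its 0 calls say nothing about stability.

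The male over female count of 6 was 6 at an adjusted p below 0.10, 4 below 0.01, 6 with the authors' size factors and 6 with a prior count of 0.5. It was 5 in the untreated and 5 in the cytokine libraries alone, which come from the same mice. The fit of the cytokine libraries alone took each gene's spread from the trend over all genes. The shares of all genes at these settings are not given, so nothing is read from these counts. Within 1 genotype, with no test, Tph1 stood at 1.15 in KO and 2.06 in Mut mice and Lrrc55 at 0.36 and 0.93. Leaving out a mouse leaves that comparison no residual degrees of freedom, so it has no test. Of 342 values of single genes under alternatives, 320 moved by less than the spread between libraries and 22 by more, 16 of them on leaving out a mouse; 0 called values changed sign.

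With 2 mice per genotype and no sex term, the standard errors hold the difference between sexes; with the term, 1 residual degree of freedom remained per gene. Standard errors of the deposited cytokine responses, 1.06 for Tph1, span both mice of a genotype without pairing them. Reads per library are depths over the recovered genes alone.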
